A study of Mus musculus with 6 samples.

Results

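The genes described here build sterols, regulate that synthesis and move cholesterol between compartments. They are 32 genes chosen by name: 8 enzymes of the mevalonate pathway, 11 enzymes that carry farnesyl diphosphate through squalene to cholesterol, 7 genes of the SREBP machinery and 6 genes of cholesterol handling. Each was found once among the 22535 rows of a gene expression table. Polyadenylated RNA had been sequenced from B16-BL6 cells, a melanoma line of mouse derived from B16 and selected for invasion. The 2 groups were sgNdufs4, cells carrying a guide RNA against Ndufs4 (3 libraries, spelled sgNDUFS4 in the titles), and sgControl, cells carrying a control guide RNA (3 libraries). Both were grown in DMEM with serum, added pyruvate and antibiotics. Ndufs4 encodes a subunit of mitochondrial complex I, and the series set out to find the expression changes that go with the immunogenicity of sgNdufs4 cells. The labels do not say whether either line is a clone or a pool, nor whether the replicates are separate cultures, so p-values measure the spread between these libraries and the guide's target cannot be told apart from other differences between the lines.

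Cells make cholesterol from acetyl-CoA. The early, mevalonate steps also supply the isoprenoids used for ubiquinone, dolichol and protein prenylation, whereas the steps from squalene onward serve sterols alone and consume oxygen and NADPH. The pathway is controlled by SREBP transcription factors: when sterols are scarce, Scap carries them from the endoplasmic reticulum to the Golgi, proteases release the active part, and it switches on the synthesis genes, while the Insig proteins hold Scap back when sterols are plentiful.

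The libraries held 25817509, 23910781 and 25947374 reads counted in genes for sgNdufs4 and 20090607, 23652793 and 22276307 for sgControl. Ndufs4 was at 15.0, 15.98 and 16.8 CPM (reads of a gene scaled to the library's reads in genes) in the sgNdufs4 libraries, against 54.3, 55.0 and 52.4 CPM in the sgControl libraries. The 7 melanocyte markers Mitf, Sox10, Pmel, Mlana, Dct, Tyrp1 and Tyr summed to between 14508 and 15533 CPM in sgNdufs4 and between 15409 and 15927 CPM in sgControl, with none at 0 in every library. The sum is mostly Pmel, Tyrp1 and Dct, and its members moved in both directions: Pmel and Mitf rose by 26.4% and 11.5%, and the other 5 fell. Tyr, the tyrosinase gene, averaged 3.10 ± 0.436 CPM in sgNdufs4 and 32.3 ± 1.57 CPM in sgControl (SD, n = 3 each). The 5 immune markers summed to between 0.308 and 3.10 CPM in sgNdufs4 and between 1.52 and 1.89 CPM in sgControl, with Cd3e at 0 throughout. All 3 endothelial markers were at 0, and the 3 keratinocyte markers summed to at most 0.271 CPM in any library. The 5 fibroblast markers summed to between 41.4 and 46.1 CPM in sgNdufs4 and between 41.8 and 44.1 CPM in sgControl, mostly from Col1a2, with Dcn and Lum at 0.

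SREBPs act on promoters through a sterol regulatory element, often beside the CCAAT box bound by NF-Y. RefSeq promoter windows (GRCm38.p6, 250 bases before and 50 bases after a start) were held for 27 of the 32 genes, and none was held for Fdft1, Fdps, Npc1, Sqle and Stard4. The letters TCACNCCAC, a form of the sterol regulatory element, were sought on both strands and stood in the window of 1 of the 27 genes, Hmgcs1, against 1.43% of the 8619 tested genes with a window. CCAAT on either strand stood in windows of 21 of the 27 genes (77.8%), against 43.6% of the tested genes. It was found in 9 of 9 genes from the squalene and sterol steps, in 6 of 7 from the mevalonate steps, in 4 of 7 of the SREBP machinery and in 2 of 4 of cholesterol handling. The GC box GGGCGG stood in 23 of the 27 genes (85.2%), against 71.2% of the tested genes. Genes that were lower in sgNdufs4 had a CCAAT box in 12 of 14 cases, genes that were higher in 4 of 6 and genes without a call in 5 of 7. A match is a run of letters in a window and was not tested as a binding site.

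The stretches below come from Hmgcs1, where the letters TCACNCCAC were found, and from some of the autosomal synthesis genes. These were lower in sgNdufs4 and had a CCAAT box in the 120 bases before the start. Other forms of the sterol regulatory element were neither sought nor marked. They are written on the gene's strand, 5′ to 3′. Capitals mark CCAAT, its reverse complement ATTGG and, in Hmgcs1, the match to TCACNCCAC.
Hmgcs1, chr13:119690154-119690282, plus strand: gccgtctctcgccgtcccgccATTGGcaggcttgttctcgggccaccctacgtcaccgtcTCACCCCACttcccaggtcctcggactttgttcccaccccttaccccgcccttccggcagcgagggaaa
Mvd, chr8:122443423-122443542, minus strand: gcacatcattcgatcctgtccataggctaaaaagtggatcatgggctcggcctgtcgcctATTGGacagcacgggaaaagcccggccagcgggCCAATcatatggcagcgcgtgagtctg
Idi1, chr13:8885486-8885605, plus strand: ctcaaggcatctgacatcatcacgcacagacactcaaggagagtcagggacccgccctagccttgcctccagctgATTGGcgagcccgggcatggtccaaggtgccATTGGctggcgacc
Lss, chr10:76531485-76531604, plus strand: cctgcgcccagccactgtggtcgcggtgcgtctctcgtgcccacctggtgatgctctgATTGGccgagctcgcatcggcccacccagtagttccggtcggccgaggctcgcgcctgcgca
Cyp51, chr5:4104698-4104817, minus strand: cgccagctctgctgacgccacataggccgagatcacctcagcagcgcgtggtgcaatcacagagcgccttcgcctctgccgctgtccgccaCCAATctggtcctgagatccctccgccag
Msmo1, chr8:64733579-64733698, minus strand: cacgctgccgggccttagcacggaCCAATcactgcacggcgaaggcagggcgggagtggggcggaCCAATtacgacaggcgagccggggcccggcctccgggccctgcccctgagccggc
Dhcr7, chr7:143830094-143830213, plus strand: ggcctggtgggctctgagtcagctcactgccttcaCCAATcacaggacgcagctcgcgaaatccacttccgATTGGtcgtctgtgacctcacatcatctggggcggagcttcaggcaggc

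Sterol genes were more often lower than higher in sgNdufs4, and 8 of the falls were in the steps after farnesyl diphosphate. All 32 passed the filter on low values, which asked for 1 CPM or more as the mean of the 6 libraries. Of them, 17 fell (53.1%, against 20.3% of all 11063 genes tested), 7 rose (21.9%, against 31.8% of all genes) and 8 did not pass; over all genes 52.0% were called in either direction. Their median log2 fold change was -0.25, against 0.06 over all genes. In 22 of the 32 the libraries of the groups were fully apart (68.8%, against 57.2% of all genes): every sgNdufs4 library was below in 16 (22.2% of all genes) and above in 6 (35.0% of all genes). In bulk RNA, fewer cells of a type and less RNA per cell cannot be told apart. Calls come from limma on log2(CPM + 0.5) at a Benjamini-Hochberg adjusted p under 0.05 over all genes tested, and log2 fold changes are sgNdufs4 over sgControl on that scale, where the 0.5 shrinks the changes of low genes. Of the calls over all genes, 61.1% were higher in sgNdufs4 as deposited and 48.9% after TMM scaling, which equalises the bulk of genes between libraries. TMM scaling gave 18 falls (25.9% of all genes) and 4 rises (24.8% of all genes) among the 32.

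**Figure D1:**
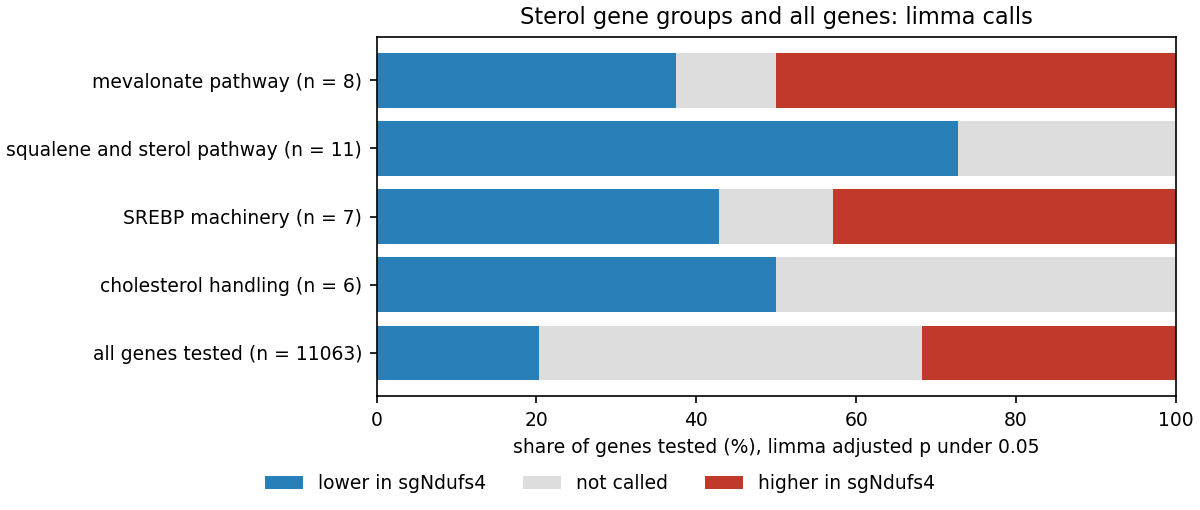
Share of genes (%, horizontal axis) called lower, not called or called higher in sgNdufs4 relative to sgControl by limma, for the 4 groups of sterol genes and for all 11063 genes tested. The squalene and sterol steps and cholesterol handling hold no gene called higher, whereas the mevalonate steps and the SREBP machinery hold both directions.

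The mevalonate enzymes moved in both directions. Of the 8 genes, 4 rose and 3 fell, 1 was not called, and the median log2 fold change was 0.10. Over all genes 31.8% rose and 20.3% fell. Under TMM scaling 3 rose and 3 fell, against 24.8% and 25.9% of all genes. After the median change of neighbouring genes was subtracted (regional centring), 1 rose and 5 fell, against 21.9% and 23.2% of all genes. The balance of rises and falls in this group therefore depended on the setting. The summed level of the 8 genes was 356.1 ± 2.75 CPM in sgNdufs4 and 335.9 ± 9.11 CPM in sgControl (SD, n = 3 each). Fdps, the most abundant of the 8, averaged 175.6 ± 1.85 CPM in sgNdufs4 and 152.6 ± 3.33 CPM in sgControl. In CPM, the sum rose by less than Fdps alone.

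Acat2, the cytosolic thiolase that joins acetyl-CoA units, was at 39.4, 34.0 and 35.1 CPM in sgNdufs4, against 45.7, 45.4 and 40.5 CPM in sgControl. Every sgNdufs4 library was below every sgControl library, and Acat2 fell by 0.28 on the log2 scale (limma: SE 0.072, adjusted p = 0.0023). Hmgcs1, which makes HMG-CoA, was at 39.9, 39.8 and 45.9 CPM in sgNdufs4, against 34.7, 32.6 and 41.8 CPM in sgControl. The groups overlapped, since sgControl replicate 3 lay above the lower pair of sgNdufs4 libraries. Its log2 fold change of 0.21 (limma: SE 0.082, adjusted p = 0.037) was no longer called without sgNdufs4 replicate 3, sgControl replicate 1 or sgControl replicate 2, where it was 0.14, 0.18 and 0.13 and the adjusted p was 0.21, 0.13 and 0.22. It was also lost under TMM scaling (0.15, adjusted p = 0.13).

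The mevalonate kinase gene Mvk was at 23.5, 29.9 and 30.8 CPM in sgNdufs4, against 29.1, 27.8 and 26.98 CPM in sgControl. The sgNdufs4 libraries lay on both sides of the sgControl libraries, and the 95% interval of the log2 fold change ran from -0.19 to 0.18. Pmvk, the phosphomevalonate kinase (chromosome 3, 89454541 to 89469013), was at 21.3, 21.5 and 19.3 CPM in sgNdufs4, against 16.1, 14.8 and 15.98 CPM in sgControl. All sgNdufs4 libraries were higher, by 0.39 on the log2 scale (limma: SE 0.096, adjusted p = 0.0012). Mvd, the decarboxylase that yields isopentenyl diphosphate, was at 22.9, 22.0 and 22.7 CPM in sgNdufs4, against 27.3, 26.7 and 29.5 CPM in sgControl. It fell by 0.30 on the log2 scale with no overlap (limma: SE 0.081, adjusted p = 0.0033).

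Idi1, the isomerase of isopentenyl diphosphate, was at 16.7, 12.4 and 14.5 CPM in sgNdufs4, against 18.2, 18.3 and 20.3 CPM in sgControl. Its log2 fold change was -0.38 (limma: SE 0.11, adjusted p = 0.0050), and without sgNdufs4 replicate 2, the lowest library, it was -0.27 (adjusted p = 0.052). Fdps, the farnesyl diphosphate synthase (chromosome 3, 89093588 to 89101959), was at 176.2, 177.0 and 173.5 CPM in sgNdufs4, against 149.8, 151.7 and 156.3 CPM in sgControl. The replicates were tight and the groups apart, with a log2 fold change of 0.20 (limma: SE 0.039, adjusted p = 9.9e-05). Fdps shares 1124 exon bases with the gene model Gm43738, which was at 173.3 CPM in sgNdufs4 and 148.3 CPM in sgControl on average, so the assignment of reads between these models is uncertain. Ggps1, which makes geranylgeranyl diphosphate for protein prenylation, was at 14.6, 17.8 and 17.4 CPM in sgNdufs4, against 12.7, 10.7 and 14.5 CPM in sgControl. It rose by 0.39 on the log2 scale (limma: SE 0.12, adjusted p = 0.0082), with sgNdufs4 replicate 1 just above the highest sgControl library. Without sgControl replicate 2 its log2 fold change was 0.28 (limma adjusted p = 0.068). Ggps1 shares 257 exon bases with Arid4b, which averaged 22.5 CPM in sgNdufs4 and 20.5 CPM in sgControl and was not called.

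From squalene synthase onward no enzyme rose. Of 11 genes, 8 fell (72.7%, against 20.3% of all genes) and 3 did not pass, whereas 31.8% of all genes rose. Each of the 11 log2 fold changes was below 0, and the median was -0.34. Their summed level was 372.3, 357.0 and 376.0 CPM in sgNdufs4, against 490.6, 477.4 and 507.0 CPM in sgControl. That sum fell by 25.1%, and by 20.2% when Nsdhl and Ebp, both on chromosome X, were left out. TMM scaling also gave 8 falls and 0 rises, against 25.9% and 24.8% of all genes.

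**Figure D2:**
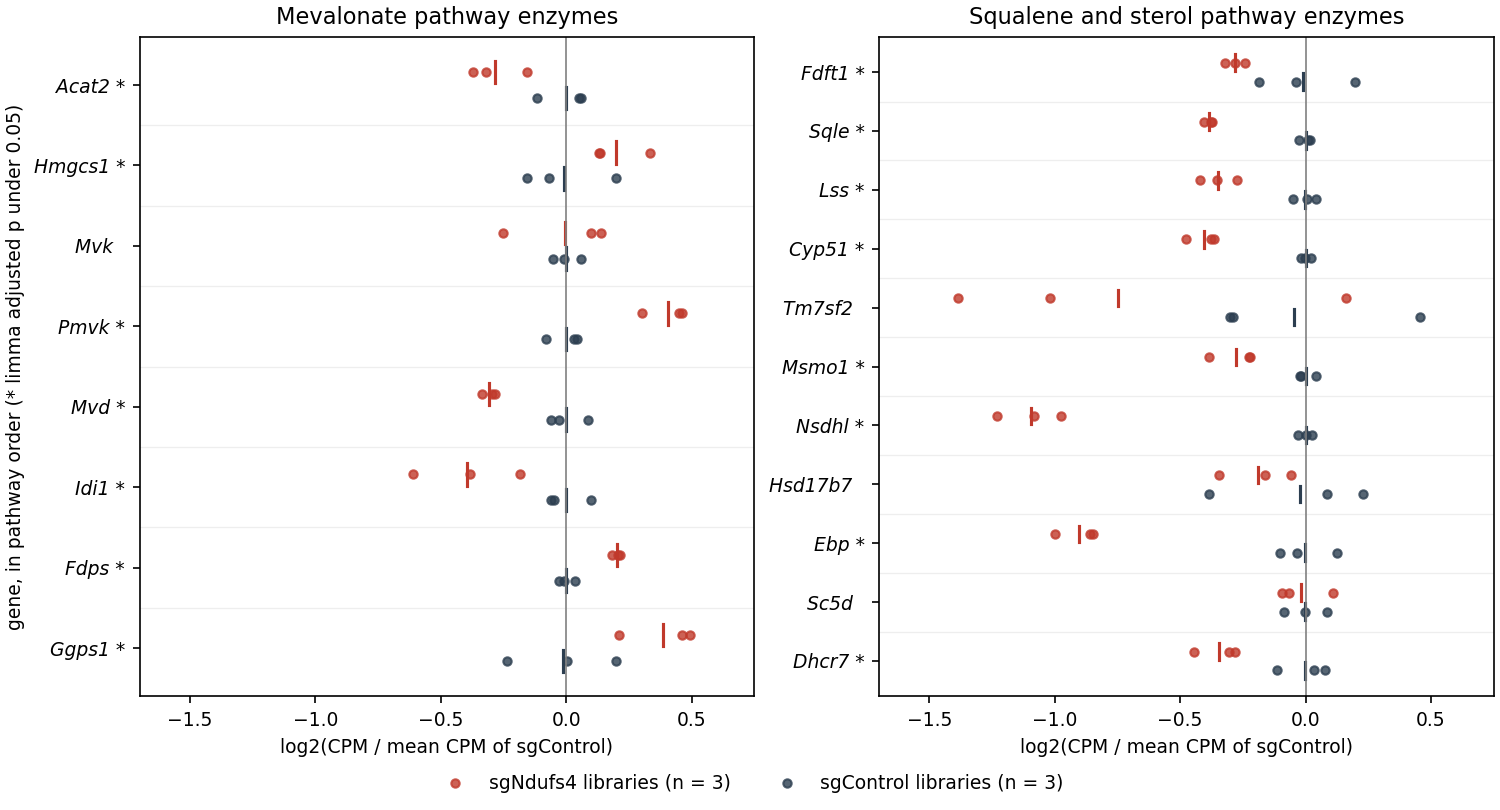
Level of each synthesis enzyme in each library, as log2 of its CPM over the mean CPM of sgControl (horizontal axis), with genes from top to bottom in pathway order. Red points are the 3 sgNdufs4 libraries, dark points the 3 sgControl libraries, short vertical bars the group means and asterisks a limma adjusted p under 0.05. The mevalonate enzymes fall on both sides of 0, whereas the sgNdufs4 means of the enzymes from Fdft1 to Dhcr7 lie at or left of it, with Nsdhl and Ebp farthest left.

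Fdft1, squalene synthase, was at 48.2, 46.9 and 49.5 CPM in sgNdufs4, against 57.0, 51.5 and 67.2 CPM in sgControl. The sgNdufs4 libraries were close together and below a wide sgControl group, with a log2 fold change of -0.27 (limma: SE 0.072, adjusted p = 0.0029), or -0.17 without sgControl replicate 3. Fdft1 shares 774 exon bases with Ctsb, a gene at 478.8 CPM in sgNdufs4 and 558.0 CPM in sgControl on average, and the sequencing did not keep the strand. Ctsb was itself called lower (log2 fold change -0.22, limma adjusted p = 3.4e-06). The assignment of reads between Fdft1 and Ctsb is therefore uncertain. Sqle, the epoxidase that adds oxygen to squalene (chromosome 15, 59315077 to 59331192, plus strand), was at 74.2, 72.5 and 73.9 CPM in sgNdufs4, against 94.4, 97.1 and 96.6 CPM in sgControl. The gap between the groups was far wider than either group, and Sqle fell by 0.38 on the log2 scale (limma: SE 0.048, adjusted p = 2.2e-07). Lss, which closes the sterol rings to give lanosterol, was at 31.3, 29.9 and 33.1 CPM in sgNdufs4, against 41.2, 40.2 and 38.6 CPM in sgControl. It fell by 0.34 on the log2 scale (limma: SE 0.070, adjusted p = 0.00021).

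Cyp51, the P450 demethylase of lanosterol (chromosome 5, 4081145 to 4104746, minus strand), was at 53.6, 57.3 and 57.8 CPM in sgNdufs4, against 75.6, 74.3 and 73.5 CPM in sgControl. It had the largest fall of the autosomal members that passed, 0.40 on the log2 scale (limma: SE 0.054, adjusted p = 7.5e-07). It shares 166 exon bases with Akap9, which averaged 80.5 CPM in sgNdufs4 and 80.0 CPM in sgControl. Msmo1, the methylsterol oxidase, was at 47.4, 42.4 and 47.5 CPM in sgNdufs4, against 54.6, 54.7 and 57.1 CPM in sgControl. Its groups did not overlap, and its log2 fold change was -0.28 (limma: SE 0.062, adjusted p = 0.00059). Dhcr7, the reductase of the closing step to cholesterol, was at 42.6, 38.1 and 42.0 CPM in sgNdufs4, against 53.0, 47.8 and 54.6 CPM in sgControl. It fell by 0.34 on the log2 scale (limma: SE 0.067, adjusted p = 0.00016).

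The 3 enzymes without a call differed in how well they were measured. Tm7sf2, a sterol reductase whose step Lbr can also carry out, had 25, 18 and 57 reads in sgNdufs4 and 32, 38 and 60 reads in sgControl, which is 1.31 ± 0.779 and 1.96 ± 0.632 CPM (SD, n = 3 each). Replicate 3 was the highest library of each group, and the 95% interval of the log2 fold change ran from -1.10 to 0.10. Without sgNdufs4 replicate 3 it was -0.83 (limma adjusted p = 0.031). Tm7sf2 also shares 532 exon bases with Vps51, which averaged 36.6 CPM in sgNdufs4 and 37.7 CPM in sgControl. The assignment of reads between Tm7sf2 and Vps51 is therefore uncertain. Hsd17b7, the ketosteroid reductase of sterol demethylation, averaged 8.09 ± 0.802 CPM in sgNdufs4 and 9.19 ± 1.93 CPM in sgControl (SD, n = 3 each), with an interval from -0.47 to 0.15. Sc5d, the sterol desaturase, averaged 20.1 ± 1.56 CPM in sgNdufs4 and 20.3 ± 1.23 CPM in sgControl (SD, n = 3 each), with an interval from -0.21 to 0.18, which does not reach the falls of Sqle, Lss, Cyp51 and Dhcr7.

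The largest falls were those of 2 X-linked enzymes that lie among other lowered genes. Nsdhl, a dehydrogenase of sterol demethylation (chromosome X, 72918557 to 72958514, plus strand), was at 14.5, 13.1 and 15.6 CPM in sgNdufs4, against 30.2, 30.8 and 31.3 CPM in sgControl. Ebp, the sterol isomerase that acts before Sc5d (chromosome X, 8185329 to 8193512, minus strand), was at 29.5, 29.3 and 26.6 CPM in sgNdufs4, against 51.8, 49.5 and 58.0 CPM in sgControl. Nsdhl fell by 53.1% and Ebp fell by 46.4% with tight replicates, with log2 fold changes of -1.07 (limma: SE 0.091, adjusted p = 2.6e-10) and -0.89 (limma: SE 0.073, adjusted p = 1.4e-10). The median log2 fold change of the 50 nearest tested genes was -0.87 around Nsdhl and -0.74 around Ebp. With that regional median subtracted, Nsdhl was at -0.20 (limma adjusted p = 0.046) and Ebp at -0.15 (adjusted p = 0.071). Mbtps2, a regulator far along the same chromosome (chromosome X, 157535371 to 157598715), had neighbours at a median of 0.16 and a log2 fold change of its own of 0.09.

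The rises in the mevalonate pathway also had raised neighbours, with 1 exception. The regional median was 0.36 around both Pmvk and Fdps on chromosome 3, and 0.49 around Hmgcs1 on chromosome 13, the same as around Ndufs4. The neighbours reached up to 18931533 bases from Hmgcs1 and 13570240 bases from Ndufs4, so these stretches overlap and their medians are not separate measurements. After regional centring Pmvk was at 0.04 (limma adjusted p = 0.79), and Fdps and Hmgcs1 changed sign to -0.15 (adjusted p = 0.0025) and -0.29 (adjusted p = 0.0077). Ggps1, elsewhere on chromosome 13 with neighbours at 0.06, was at 0.33 (adjusted p = 0.027). Among the autosomal genes of the squalene and sterol steps, the regional medians ran from -0.09 around Tm7sf2 to 0.13 around Msmo1. After centring Sqle, Lss, Cyp51, Msmo1, Fdft1 and Dhcr7 kept their calls, at -0.30, -0.37, -0.53, -0.41, -0.36 and -0.38. Over both synthesis groups, 19 genes, centring gave 12 falls and 1 rise, against 11 falls and 4 rises without it. Over all 10881 genes that could be centred, 23.2% were called lower and 21.9% higher. Gene position and genotype cannot be told apart for a gene that moves with its neighbours, and the error of the regional median is not in these p-values.

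**Figure D3:**
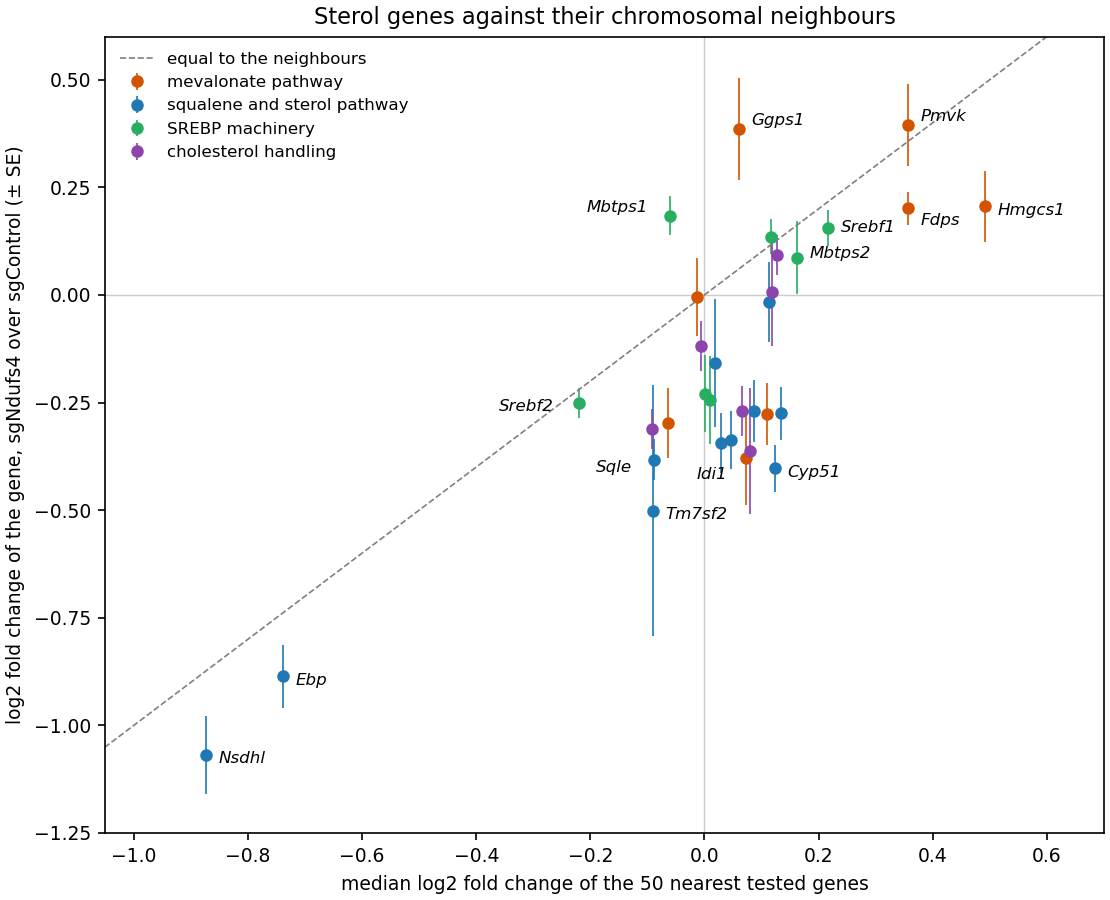
Log2 fold change of each of the 32 sterol genes (vertical axis, ± SE) against the median log2 fold change of its 50 nearest tested genes (horizontal axis), coloured by group, with a dashed line where both are equal. Nsdhl and Ebp, at -1.07 and -0.89, lie just below the line at neighbour medians of -0.87 and -0.74, Srebf2 lies near it at -0.25, and Cyp51, at -0.40, lies well below it.

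Among the 7 SREBP genes there were 3 rises and 3 falls (42.9% each, against 31.8% and 20.3% of all genes). None of their log2 fold changes lay outside -0.25 to 0.18. TMM scaling gave 1 rise and 3 falls, against 24.8% and 25.9% of all genes. Regional centring gave 1 rise and 2 falls, against 21.9% and 23.2% of all genes. Srebf2, whose product is the main activator of cholesterol synthesis (chromosome 15, 82147181 to 82205379), was at 271.8, 270.8 and 283.8 CPM in sgNdufs4, against 323.1, 339.9 and 320.7 CPM in sgControl. It fell by 0.25 on the log2 scale (limma: SE 0.035, adjusted p = 1.3e-06). Its neighbours had a median of -0.22, and after regional centring Srebf2 was at -0.03 (limma adjusted p = 0.50). Srebf1, whose products act more on fatty acid synthesis, was at 144.6, 142.6 and 154.4 CPM in sgNdufs4, against 132.1, 133.8 and 130.2 CPM in sgControl. Its libraries did not overlap, and its log2 fold change of 0.16 (limma: SE 0.042, adjusted p = 0.0033) was lost under TMM scaling (0.10, adjusted p = 0.060) and was -0.06 after regional centring. Srebf1 shares 109 exon bases with Rai1, which was at 124.5 CPM in sgNdufs4 and 111.7 CPM in sgControl on average. Rai1 was itself called higher (log2 fold change 0.16, limma adjusted p = 0.0050). Within a library, where scaling cancels, the ratio of Srebf1 to Srebf2 reads was 0.534 ± 0.00882 in sgNdufs4 and 0.403 ± 0.00799 in sgControl (SD, n = 3 each).

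Scap, the sterol-sensing escort of the SREBPs, was at 204.2, 192.1 and 201.1 CPM in sgNdufs4, against 188.8, 182.6 and 172.3 CPM in sgControl. Its log2 fold change of 0.14 (limma: SE 0.041, adjusted p = 0.0069) was lost under TMM scaling (0.08, adjusted p = 0.13) and after regional centring (0.02, adjusted p = 0.75). Mbtps1, the Golgi protease that makes the opening cut in SREBPs (chromosome 8, 119508156 to 119558735), was at 126.5, 132.8 and 127.0 CPM in sgNdufs4, against 115.4, 116.6 and 107.9 CPM in sgControl. It rose by 0.18 on the log2 scale (limma: SE 0.045, adjusted p = 0.0012) and kept its call under TMM scaling (0.12) and regional centring (0.24). Mbtps2, the protease of the next cut, averaged 24.0 ± 0.535 CPM in sgNdufs4 and 22.6 ± 1.42 CPM in sgControl (SD, n = 3 each), with a 95% interval of the log2 fold change from -0.09 to 0.26. Mbtps2 shares 2867 exon bases with Yy2, a gene at 5.23 CPM in sgNdufs4 and 4.56 CPM in sgControl on average.

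Both Insig genes, which retain Scap in the endoplasmic reticulum, were slightly lower. Insig1, itself an SREBP target, was at 13.9, 15.7 and 16.3 CPM in sgNdufs4, against 17.9, 19.5 and 17.2 CPM in sgControl. The groups were adjacent without overlap, and the log2 fold change was -0.24 (limma: SE 0.10, adjusted p = 0.046). Insig2 was at 22.3, 24.8 and 23.1 CPM in sgNdufs4, against 25.7, 25.8 and 31.3 CPM in sgControl, with a log2 fold change of -0.23 (limma: SE 0.089, adjusted p = 0.032). Either call was lost in some fits that left out a library. For Insig1 these were the fits without sgNdufs4 replicate 1 or 2 or without sgControl replicate 1 or 2, with adjusted p-values of 0.19, 0.069, 0.074 and 0.17. For Insig2 they were the fits without sgNdufs4 replicate 1 or 3 or without sgControl replicate 3, with adjusted p-values of 0.12, 0.075 and 0.22 and a log2 fold change of -0.14 in the last.

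**Figure D4:**
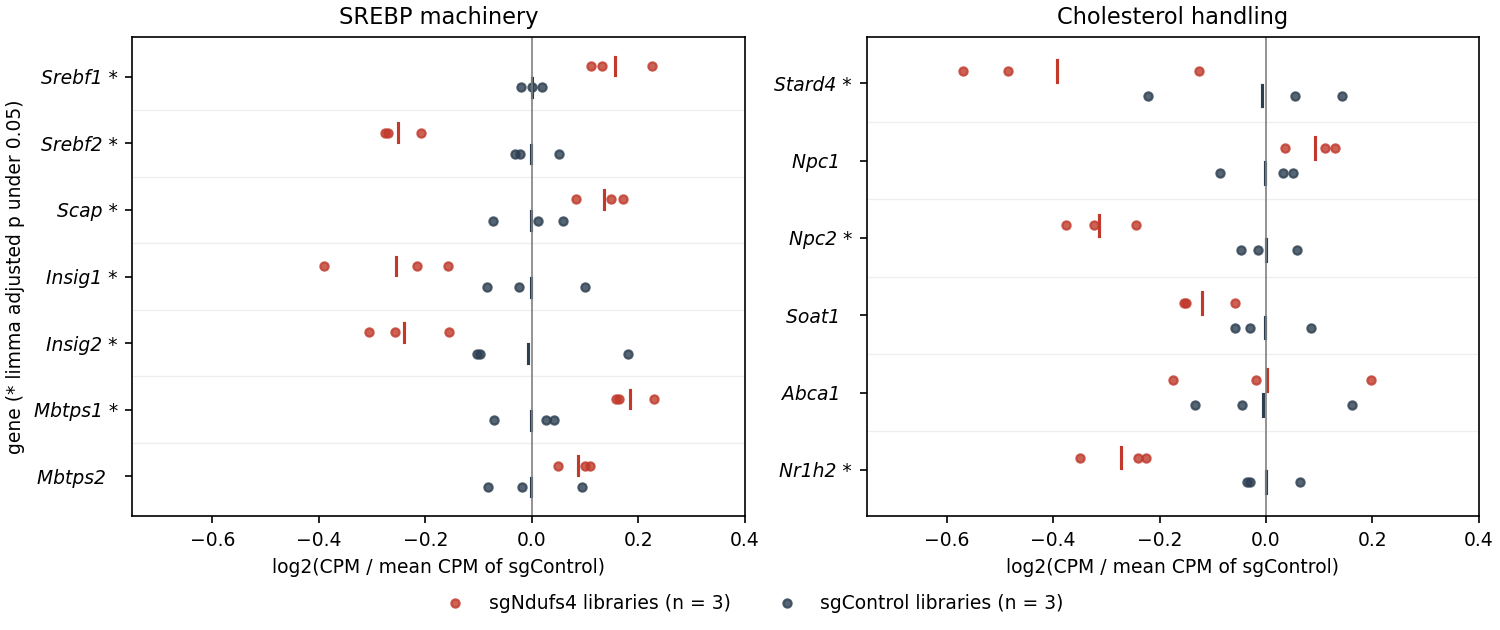
Level of each SREBP gene (left) and cholesterol handling gene (right) in each library, as log2 of its CPM over the mean CPM of sgControl. Red points are the 3 sgNdufs4 libraries, dark points the 3 sgControl libraries, short vertical bars the group means and asterisks a limma adjusted p under 0.05. Srebf2, Npc2 and Nr1h2 separate to the left without overlap, whereas Abca1 and Npc1 overlap with sgControl.

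Of the 6 genes of cholesterol handling, 3 fell and 0 rose, and the median log2 fold change was -0.19. Over all genes 20.3% fell and 31.8% rose. Under TMM scaling 4 fell and 0 rose, against 25.9% and 24.8% of all genes. After regional centring 3 fell and 0 rose, against 23.2% and 21.9% of all genes. The groups were fully apart in only 2 of the 6 genes (33.3%, against 57.2% of all genes). Npc2, the soluble lysosomal protein that binds cholesterol from endocytosed lipoprotein, was at 98.1, 103.6 and 94.6 CPM in sgNdufs4, against 121.5, 118.8 and 127.8 CPM in sgControl. It fell by 0.31 on the log2 scale (limma: SE 0.047, adjusted p = 4.4e-06), and by 0.22 after regional centring (limma adjusted p = 0.00037). Its membrane partner Npc1, which takes cholesterol over from Npc2, was at 123.1, 121.5 and 115.4 CPM in sgNdufs4, against 115.0, 105.9 and 116.6 CPM in sgControl. The Npc1 groups overlapped, with a log2 fold change of 0.09 (95% interval -0.0032 to 0.19, limma adjusted p = 0.099). The ratio of Npc2 to Npc1 reads within a library was 0.823 ± 0.0284 in sgNdufs4 and 1.09 ± 0.0334 in sgControl (SD, n = 3 each).

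Nr1h2 encodes LXR beta, a nuclear receptor that senses oxysterols, and was at 50.9, 54.9 and 55.4 CPM in sgNdufs4, against 63.3, 63.5 and 67.7 CPM in sgControl. It fell by 0.27 on the log2 scale without overlap (limma: SE 0.058, adjusted p = 0.00035). Abca1, the cholesterol exporter that LXRs activate, averaged 11.6 ± 1.51 CPM in sgNdufs4 and 11.5 ± 1.23 CPM in sgControl (SD, n = 3 each). The Abca1 interval, from -0.25 to 0.26 on the log2 scale, is wide at this level.

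Stard4, a cytosolic sterol carrier and SREBP target, was at 6.35, 6.73 and 8.63 CPM in sgNdufs4, against 10.4, 8.08 and 9.79 CPM in sgControl. The groups overlapped, and its log2 fold change of -0.36 (limma: SE 0.15, adjusted p = 0.040) lost its call without sgNdufs4 replicate 1 or 2 or without sgControl replicate 1 or 3, with adjusted p-values of 0.17, 0.12, 0.16 and 0.095. Soat1, which esterifies cholesterol for storage, was at 62.2, 58.2 and 58.3 CPM in sgNdufs4, against 68.6, 62.1 and 63.4 CPM in sgControl. It did not pass as deposited (log2 fold change -0.12, limma adjusted p = 0.085) and was called lower under TMM scaling (-0.18, adjusted p = 0.011).

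Around these genes, 64 others of the pathway were listed and 54 tested, of which 10 rose (18.5%, against 31.8% of all genes) and 14 fell (25.9%, against 20.3% of all genes) around a median of -0.03. TMM scaling gave 5 rises and 17 falls among these 54, against 24.8% and 25.9% of all genes. Regional centring gave 9 rises and 21 falls, against 21.9% and 23.2% of all genes. Other synthesis steps gave 2 rises and 5 falls among 8 tested (25.0% and 62.5%, against 31.8% and 20.3% of all genes). Acat1, the mitochondrial counterpart of Acat2, averaged 255.1 ± 12.8 CPM in sgNdufs4 and 191.6 ± 8.99 CPM in sgControl (SD, n = 3 each), a log2 fold change of 0.41, opposite in sign to Acat2. Lbr, the lamin B receptor with sterol reductase activity, averaged 91.9 ± 5.84 CPM in sgNdufs4 and 117.8 ± 2.67 CPM in sgControl (SD, n = 3 each), a fall of 0.36 on the log2 scale. Cyb5r3, which passes electrons to the sterol oxidases through cytochrome b5, had a log2 fold change of -0.26 among neighbours at a median of -0.21, and its call was lost after regional centring (-0.06, limma adjusted p = 0.18). Erg28, a scaffold of sterol demethylation, was at -0.10 and did not pass.

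Uptake, transport and oxysterol genes gave 3 rises and 5 falls among 20 tested (15.0% and 25.0%, against 31.8% and 20.3% of all genes). TMM scaling gave 2 rises and 5 falls among these 20, against 24.8% and 25.9% of all genes. Regional centring gave 2 rises and 9 falls, against 21.9% and 23.2% of all genes. Scarb1, the receptor for high-density lipoprotein, averaged 92.7 ± 7.42 CPM in sgNdufs4 and 154.4 ± 4.26 CPM in sgControl (SD, n = 3 each). Its log2 fold change was -0.74 (limma: SE 0.050, adjusted p = 3.6e-12), while its neighbours had a median of -0.05. Lrp1, a large endocytic receptor of lipoprotein remnants, averaged 358.1 ± 7.79 CPM in sgNdufs4 and 239.7 ± 3.42 CPM in sgControl (SD, n = 3 each), and rose by 0.58 on the log2 scale (limma: SE 0.033, adjusted p = 1.4e-13). The oxysterol hydroxylase Cyp7b1 was at -0.06 and did not pass.

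Genes of sterol-regulated degradation and sensing gave 4 rises and 2 falls among 11 tested (36.4% and 18.2%). These shares are close to those of all genes, 31.8% and 20.3%. Under TMM scaling the list gave 0 rises and 2 falls, against 24.8% and 25.9% of all genes. The segregase Vcp fell by 0.23 on the log2 scale, and the lipid droplet protein Aup1 and the ubiquitin ligase Rnf139 were higher by 0.11 and 0.23 as deposited and did not pass under TMM scaling, with adjusted p-values of 0.23 and 0.052. The ubiquitin-conjugating enzyme Ube2g2 was at 0.01 and did not pass. The isoprenoid branch gave 1 rise and 2 falls among 15 tested (6.67% and 13.3%, against 31.8% and 20.3% of all genes). Under TMM scaling it gave 1 rise and 5 falls, against 24.8% and 25.9% of all genes. Rabggtb, a subunit of the enzyme that prenylates Rab proteins, fell by 0.32, and Zmpste24, a protease of prenylated lamin A, fell by 0.16. Pggt1b, the catalytic subunit that adds geranylgeranyl groups, rose by 0.39, the same size as the rise of Ggps1. Nus1, which takes part in dolichol synthesis, and Chml, a Rab escort protein, did not pass, at 0.16 and 0.00.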

How the data were processed

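Polyadenylated RNA of 6 libraries was sequenced as read pairs without strand, per the labels' protocols. The submitters' processing notes name HISAT2 and GRCm38, and the sources used here name neither a counting tool nor an annotation. The deposited values are CPM, scaled by the authors to the reads of each library counted in genes. Whole reads were recovered by dividing each library by its smallest value above 0, and at least 99.98% of values came out whole within 0.01.

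The main test was limma 3.58.1 (R 4.3.3) with a mean-variance trend on log2(CPM + 0.5), two-sided, for the 11063 genes whose mean reached 1 CPM, adjusted by Benjamini-Hochberg over all of them. edgeR 4.0.16 and DESeq2 1.42.0 were run on the recovered reads, and edgeR called 5583 genes, 2723 higher and 2860 lower. The main limma fit, edgeR and DESeq2 were tried on simulated counts with few changed genes and no regional shifts. Regional centring and the other fits were not simulated. Regional centring subtracted from each gene's sgNdufs4 values the median log2 fold change of its 50 nearest tested genes (GENCODE M21 positions by symbol). Among the 32 genes, the farthest of these neighbours lay between 769263 bases (Tm7sf2) and 20339448 bases (Cyp51) away. Other fits changed the pseudocount, filter, scaling or variance model, added a replicate block or left out 1 library.

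Named are all 32 genes, Ndufs4 and, of each list of other pathway genes, the 4 with the smallest p-value and the 1 with the largest. A few genes picked by this rule are left out here. The genes and lists were chosen with earlier results of these data known.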

Additional observations from a re-analysis of the deposited data

How the results depend on the processing

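Over 17 other fits, Acat2, Mvd, Sqle, Lss, Cyp51, Msmo1, Nsdhl, Dhcr7, Npc2, Nr1h2 and Mbtps1 kept their direction and their call. The count of falls among the 32 genes lay between 14 and 18, also with a library left out (14 to 17), and the count of rises lay between 5 and 7 with a library left out. Only scaling or position moved a count by over 1.5 times: the rises numbered 4 with TMM scaling, edgeR and DESeq2, and 2 with regional centring. Over all genes 5755 were called, and between 4902 and 5941 in the other fits, and 24 of the other pathway genes, and between 20 and 30. Calls of lower over all genes numbered 2241 in the main fit, and between 1880 (without the mean-variance trend) and 2862 (TMM scaling) in the others. Calls of higher numbered 3514, and between 2379 (regional centring) and 3632 (replicate block) in the others.

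Some log2 fold changes changed sign, and of the values that follow those of Hmgcs1 and Fdps were called. With regional centring Hmgcs1 was at -0.29, Fdps at -0.15, Mvk at 0.0087, Srebf1 at -0.061, Mbtps2 at -0.076, Npc1 at -0.033 and Abca1 at -0.11. Abca1 was also at -0.051 with TMM scaling, -0.050 with edgeR, -0.050 with DESeq2 and -0.064 with quantile normalization. With a library left out, Abca1 lay between -0.087 and 0.091, Mvk between -0.075 and 0.12 and Sc5d between -0.077 and 0.027. The cause of these changes was not tested. Regional centring also tested fewer genes, 10881 against 11063.

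Same-numbered libraries deviated from their group means with correlations of 0.056, 0.012 and 0.097, so the numbers were not taken as pairs. Not every library correlated best with its own number. With the replicate block 7 of the 32 genes rose and 17 fell, 5941 genes were called in all and 26 other pathway genes were called. Depth limits Tm7sf2, which had as few as 18 reads in a library.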

Other observations

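Per kilobase of merged exons, Fdps was the most abundant of the 19 synthesis enzymes in both lines, at 41.7 CPM per kilobase in sgNdufs4 and 36.3 in sgControl on average, and Tm7sf2 the least, at 0.297 in sgNdufs4 and 0.446 in sgControl. Ebp was next to Fdps in sgControl, at 23.0 CPM per kilobase, and was at 12.3 in sgNdufs4, below Acat2 (14.2), Sqle (13.3) and Cyp51 (12.7). Among the regulators, Srebf2 was at 38.3 CPM per kilobase in sgNdufs4 and 45.6 in sgControl, and Srebf1 at 26.1 in sgNdufs4 and 23.4 in sgControl. Lengths are of annotated exons rather than of the isoforms used, so these orders are approximate.

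Por, the reductase that feeds Cyp51 and Sqle, averaged 111.1 ± 4.25 CPM in sgNdufs4 and 132.2 ± 4.32 CPM in sgControl (SD, n = 3 each), -0.25 on the log2 scale (limma adjusted p = 4.3e-05). Cyb5b averaged 141.7 ± 2.68 CPM in sgNdufs4 and 158.7 ± 4.41 CPM in sgControl (SD, n = 3 each), -0.16 on the log2 scale (limma adjusted p = 0.0015). Por and Cyb5b were named after their values were seen. Both also serve reactions outside sterol synthesis.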
